A study of Homo sapiens with 5 samples.

Results

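The genes described here are transcriptional targets of the tumour suppressor p53 together with inhibitors of cyclin-dependent kinases (CDKs). They are 32 of the 58174 genes listed and were chosen by gene symbol, with no threshold on a measured value but with earlier results of these data known. The data come from RNA sequencing of Ishikawa cells, a cell line from a human endometrial carcinoma, in 5 libraries. In 3 libraries (sh-LINC00958) the cells carried a lentiviral short hairpin RNA against the long non-coding RNA LINC00958, and in 2 libraries (sh-NC) they carried a negative control. Both groups went through lentiviral infection and puromycin selection at 2.5 µg/ml, begun 72 h after infection. How many hairpins were used, their sequence, when cells were harvested and how strand was treated in counting are not given in the sources used. Whether replicates were grown as separate cultures is not stated either. A p-value here sets the difference between the groups against the spread among these samples only. That spread is estimated in part from other genes and may be technical.

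The p53 protein is a transcription factor that is held at a low level by the ubiquitin ligase MDM2 and accumulates when DNA is damaged or the cell is otherwise stressed. It binds DNA as a tetramer at a pair of adjacent half-sites and switches on genes that stop the cell cycle, repair DNA, retune metabolism or promote cell death, and also genes that feed back to restrain p53 itself. CDKN1A (p21) is the target through which p53 holds CDK activity down. The INK4 proteins encoded by CDKN2A, CDKN2B and CDKN2D block CDK4 and CDK6, and CDKN1C (p57) is a relative of p21.

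A search of the RefSeq promoter windows (GRCh38.p14) of members found paired matches to the p53 half-site consensus. They are shown because that consensus describes the letters a p53 tetramer recognises. Whether p53 binds these stretches was not tested. The half-site consensus has 10 letters and reads the same on both strands. A pair was counted with at most 2 mismatches in all and a gap of at most 13 bases, with the central C and G of each half-site required, and the capitals mark its half-sites. Windows held the 250 bases before an annotated start, which can lie inside the gene. Sequences run 5′ to 3′ on the gene's strand, whole up to the start for MDM2, up to the end of the pair for AEN, and the pair alone for FAS and FDXR.
MDM2: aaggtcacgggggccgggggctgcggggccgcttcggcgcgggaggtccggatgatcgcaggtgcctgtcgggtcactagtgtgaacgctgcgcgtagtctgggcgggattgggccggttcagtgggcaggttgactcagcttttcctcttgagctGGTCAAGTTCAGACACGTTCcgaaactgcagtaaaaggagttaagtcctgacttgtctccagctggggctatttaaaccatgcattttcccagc
AEN: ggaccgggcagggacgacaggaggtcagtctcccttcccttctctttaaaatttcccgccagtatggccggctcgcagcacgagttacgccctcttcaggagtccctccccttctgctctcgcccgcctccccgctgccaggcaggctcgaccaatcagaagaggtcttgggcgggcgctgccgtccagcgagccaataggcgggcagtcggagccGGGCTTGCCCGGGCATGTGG
FAS: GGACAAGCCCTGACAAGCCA
FDXR: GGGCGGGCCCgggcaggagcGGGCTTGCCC

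The MDM2 stretch is chr12:68808767-68809016 on the plus strand, with the pair 94 to 75 bases before the start. The AEN stretch is chr15:88621090-88621325 on the plus strand and ends with its pair, 34 to 15 bases before the start. The FAS pair is chr10:88991309-88991328 on the plus strand, and the FDXR pair is chr17:74872996-74873025 on the minus strand with a gap of 10 bases between its half-sites. Each of these 4 printed pairs carries 2 mismatches. Annotated exons cover 15 bases of the MDM2 stretch, 30 of the AEN stretch, and all of the FAS and FDXR pairs. The search found a further pair in the FAS window that overlaps the printed one and ends 5 bases beyond it. Of the 32 members, 26 had a window in the table, 39 windows in all. A pair was found in 5 of the 39 (12.82%), against 2.492% of all 35116 windows, and the 5 windows belong to these 4 genes, with MDM2 counted through overlapping windows. A half-site without mismatch was found in 5 of the 39 windows, those of PLK2, SESN1, FAS, AEN and FDXR (12.82%), against 5.573% of all windows. The windows of ZMAT3 and TRIAP1 held neither. TP53INP1, RRM2B, TNFRSF10B, GADD45A, PHLDA3 and CDKN1C are named only. A match is a description of letters in a short window, and sites outside these windows, in introns or farther upstream, were not searched.

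The values are TPM, a transcript level scaled for length and to the same total in each library, so levels of different genes can be set side by side and each value is a share of the RNA measured in that library. Sequencing depth is unknown from TPM. LINC00958 itself measured 67.2, 67.1 and 58.4 TPM in sh-LINC00958 and 119.3 and 137.4 TPM in sh-NC, a log2 fold change of -0.99 ± 0.106 (SE, limma adjusted p = 0.0119). With 1 library left out at a time its fold change stayed between -1.09 and -0.89, and the limma adjusted p was 0.0545 without sh-LINC00958 replicate 1, 0.0672 and 0.0874 with sh-NC replicate 1 and then replicate 2 left out. The summed TPM of 8 epithelial markers was 2404 to 2575 in sh-LINC00958 and 2433 to 2436 in sh-NC. Markers of the labelled epithelial origin were thus abundant in all 5 libraries. The sums for 6 fibroblast markers were 5.31 to 5.87 in sh-LINC00958 and 4.95 to 5.10 in sh-NC, with DCN at 0 throughout. For 6 blood cell markers the sums were 3.12 to 4.05 in sh-LINC00958 and 2.08 to 3.26 in sh-NC, with CD3E and HBB at 0 throughout. For 4 endothelial markers they were 4.39 to 5.89 in sh-LINC00958 and 6.46 to 6.88 in sh-NC, with KDR at 0 throughout. The fibroblast sum was higher and the endothelial sum lower in every sh-LINC00958 library than in either sh-NC library, both at low levels. KRT18, an epithelial keratin, was higher in sh-LINC00958 by 0.44 on the log2 scale (limma adjusted p = 0.0211), and no gene of the 3 other lists passed the test. KRT8 and KRT19, further epithelial keratins, were higher in every sh-LINC00958 library without passing, at 0.26 and 0.36 in that order. EPCAM, PAX8 and SOX17, other epithelial markers, were lower in every sh-LINC00958 library without passing, at -0.27, -0.20 and -0.28. PAX8 and SOX17 passed as lower after removal of a trend with GC content and length, and KRT18 still passed as higher. CDH1 and MUC1 overlapped between the groups. The part of these markers in the results was not tested.

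Among the members, 5 genes fell with the hairpin against LINC00958 and none rose. TP53INP1, ZMAT3, AEN and TRIAP1 belong to the cell death group, and RRM2B supplies nucleotides for DNA repair. The main brakes and feedback genes of the pathway, CDKN1A, MDM2, CCNG1 and PPM1D, did not pass the test. A gene was tested where its mean was at least 1 TPM over the 5 libraries, which kept 31 members and left out SPATA18, and a gene passed at a limma adjusted p under 0.05 over all 17049 genes tested. The 5 lower members are 16.1% of the 31, where 5.68% of all tested genes were lower, 4.12% higher and 9.8% called in either direction. At an unadjusted limma p under 0.05, 12 members were lower and 2 higher, and the shares over all tested genes were 16.3% and 14.3%. In 13 of the 31 members every sh-LINC00958 library was below every sh-NC library (41.9%, against 25.5% of all tested genes), and in 6 every sh-LINC00958 library was above (19.4%, against 24.4%). Over all tested genes, 49.9% had groups that did not overlap in either direction. The median log2 fold change of the members was -0.05. In RNA from whole cultures, fewer cells expressing a gene and less RNA per cell cannot be told apart.

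**Figure D1:**
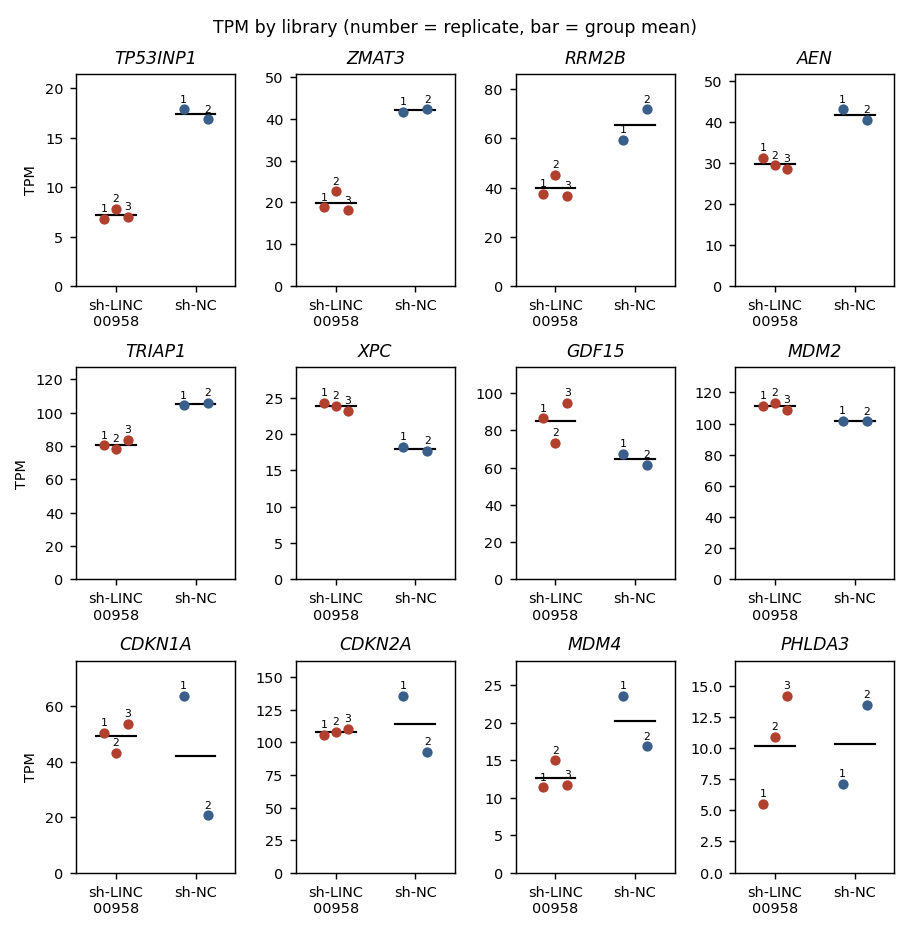
TPM (vertical axes, from 0) of 12 members in each library, with sh-LINC00958 at the left and sh-NC at the right of every panel; points are libraries with their replicate number and bars are group means. TP53INP1, ZMAT3, RRM2B, AEN and TRIAP1 have separate groups with sh-LINC00958 lower, while the CDKN1A sh-NC libraries lie at 63.7 and 20.7 TPM on either side of the 3 sh-LINC00958 libraries.

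The strongest declines among the members, those of TP53INP1 and ZMAT3, were in the group listed as cell death. That group holds 9 members, 8 of them tested. TP53INP1, a p53-induced nuclear protein that promotes cell death and autophagy, measured 6.82, 7.82 and 6.99 TPM in sh-LINC00958 and 17.9 and 16.9 TPM in sh-NC. Every sh-LINC00958 library was below both sh-NC libraries. TP53INP1 averaged 7.21 ± 0.538 TPM in sh-LINC00958 and 17.4 ± 0.719 TPM in sh-NC (SD, n = 3 and n = 2). On the log2 scale it fell by 1.16 with a standard error of 0.116 (limma adjusted p = 0.0101), and the 95% interval was -1.45 to -0.88. ZMAT3, a zinc finger RNA-binding protein that acts in p53-dependent growth control, measured 18.9, 22.7 and 18.1 TPM in sh-LINC00958 and 41.8 and 42.3 TPM in sh-NC. Its groups did not overlap either, and sh-LINC00958 replicate 2 was the highest of its group. The fold change of ZMAT3 was -1.05 ± 0.121 on the log2 scale (SE, 95% interval -1.35 to -0.75, limma adjusted p = 0.0133), from means of 19.9 ± 2.45 TPM (SD, n = 3) in sh-LINC00958 and 42.05 ± 0.381 TPM (SD, n = 2) in sh-NC.

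AEN encodes a nuclease that degrades DNA during apoptosis, and its promoter window holds the consensus match printed above. AEN fell by a smaller amount. It measured 31.3, 29.5 and 28.6 TPM in sh-LINC00958 and 43.2 and 40.5 TPM in sh-NC, and the groups did not overlap. Its means were 29.8 ± 1.37 TPM in sh-LINC00958 and 41.9 ± 1.88 TPM in sh-NC (SD, n = 3 and n = 2). The log2 fold change of AEN was -0.48 ± 0.0899 (SE, 95% interval -0.70 to -0.26, limma adjusted p = 0.0332). TRIAP1, a small mitochondrial protein that restrains apoptosis, also fell, opposite in role to TP53INP1 and AEN. TRIAP1 measured 80.4, 78.2 and 83.8 TPM in sh-LINC00958 and 104.4 and 105.9 TPM in sh-NC, again without overlap, and averaged 80.8 ± 2.84 TPM in sh-LINC00958 and 105.1 ± 1.10 TPM in sh-NC (SD, n = 3 and n = 2). Its log2 fold change was -0.38 ± 0.0738 (SE, 95% interval -0.56 to -0.20, limma adjusted p = 0.0363), the smallest of the 5.

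The death receptors did not pass the test. TNFRSF10B, a receptor for the death ligand TRAIL and the most abundant member of the cell death group, measured 116.8, 119.7 and 119.9 TPM in sh-LINC00958 and 94.0 and 115.3 TPM in sh-NC. All 3 sh-LINC00958 libraries lay above both sh-NC libraries, by little over replicate 2, and the log2 fold change was 0.19 (95% interval -0.06 to 0.44, limma adjusted p = 0.268). FAS, the receptor for FAS ligand, measured 39.7, 21.4 and 34.9 TPM in sh-LINC00958 and 24.9 and 30.1 TPM in sh-NC, so its groups overlapped. Its spread within sh-LINC00958 was wider than that of 93.2% of tested genes. EDA2R, a receptor for ectodysplasin, was low, at 1.39, 1.66 and 1.33 TPM in sh-LINC00958 and 2.05 and 3.53 TPM in sh-NC. The EDA2R groups did not overlap and the limma adjusted p was 0.130. PHLDA3, which blocks the kinase AKT at the membrane, measured 5.51, 10.9 and 14.2 TPM in sh-LINC00958 and 7.11 and 13.4 TPM in sh-NC, with a wide spread in both groups. Exons of AC096677.2, on the same strand, cover 19.1% of the PHLDA3 exon bases. Those of ACTA2, on the opposite strand, cover 8.94% of the FAS exon bases. AC096677.2 averaged 4.40 TPM in sh-LINC00958 and 5.25 TPM in sh-NC, and ACTA2 6.82 and 4.06 TPM. The PHLDA3 and FAS levels are uncertain by an amount that was not tested. SPATA18, a protein of mitochondrial quality control, was at 1.04, 0.934 and 0.706 TPM in sh-LINC00958 and 1.06 and 1.09 TPM in sh-NC and was not tested.

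Of the 4 genes of DNA repair and nucleotide supply, RRM2B fell and XPC lay just outside the threshold in the other direction. RRM2B, the p53-inducible small subunit of ribonucleotide reductase, had the highest mean of the group over all 5 libraries, although DDB2 was above it in sh-LINC00958. RRM2B measured 37.3, 45.0 and 36.5 TPM in sh-LINC00958 and 59.4 and 71.8 TPM in sh-NC, and its groups did not overlap. The log2 fold change of RRM2B was -0.71 ± 0.135 (SE, 95% interval -1.04 to -0.38, limma adjusted p = 0.0336), from means of 39.6 ± 4.72 TPM (SD, n = 3) in sh-LINC00958 and 65.6 ± 8.76 TPM (SD, n = 2) in sh-NC. XPC, which recognises bulky DNA lesions for nucleotide excision repair, measured 24.3, 23.9 and 23.2 TPM in sh-LINC00958 and 18.2 and 17.7 TPM in sh-NC. Every sh-LINC00958 library was above both sh-NC libraries, and the log2 fold change was 0.39 ± 0.0899 (SE, 95% interval 0.17 to 0.61, limma adjusted p = 0.0507). Under a pseudocount of 0.1, a filter of at least 5 TPM, median-ratio scaling or quantile normalization, XPC passed with limma adjusted p-values of 0.0365 to 0.0496. Exons of other genes on the opposite strand cover part of XPC, AC093495.1 23.8%, AC090004.1 8.61% and LSM3 6.63% of its exon bases. AC093495.1 averaged 3.74 TPM in sh-LINC00958 and 3.58 TPM in sh-NC, and LSM3 52.3 and 62.3 TPM. AC090004.1 was higher with the hairpin, as XPC was, at 1.69 TPM in sh-LINC00958 and 0.623 TPM in sh-NC. The XPC level is uncertain by an amount that was not tested.

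DDB2, which works with XPC on ultraviolet lesions, was nearly level across the 5 libraries, at 45.9, 44.7 and 44.8 TPM in sh-LINC00958 and 44.7 and 45.2 TPM in sh-NC. The 95% interval of its log2 fold change was narrow, -0.18 to 0.19. POLH, the DNA polymerase that copies past ultraviolet lesions, measured 22.02, 22.9 and 21.1 TPM in sh-LINC00958 and 26.8 and 28.0 TPM in sh-NC. The POLH groups did not overlap, and its limma adjusted p was 0.0890. The members of this group therefore differed in sign, with RRM2B and POLH below 0 and XPC above 0.

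**Figure D2:**
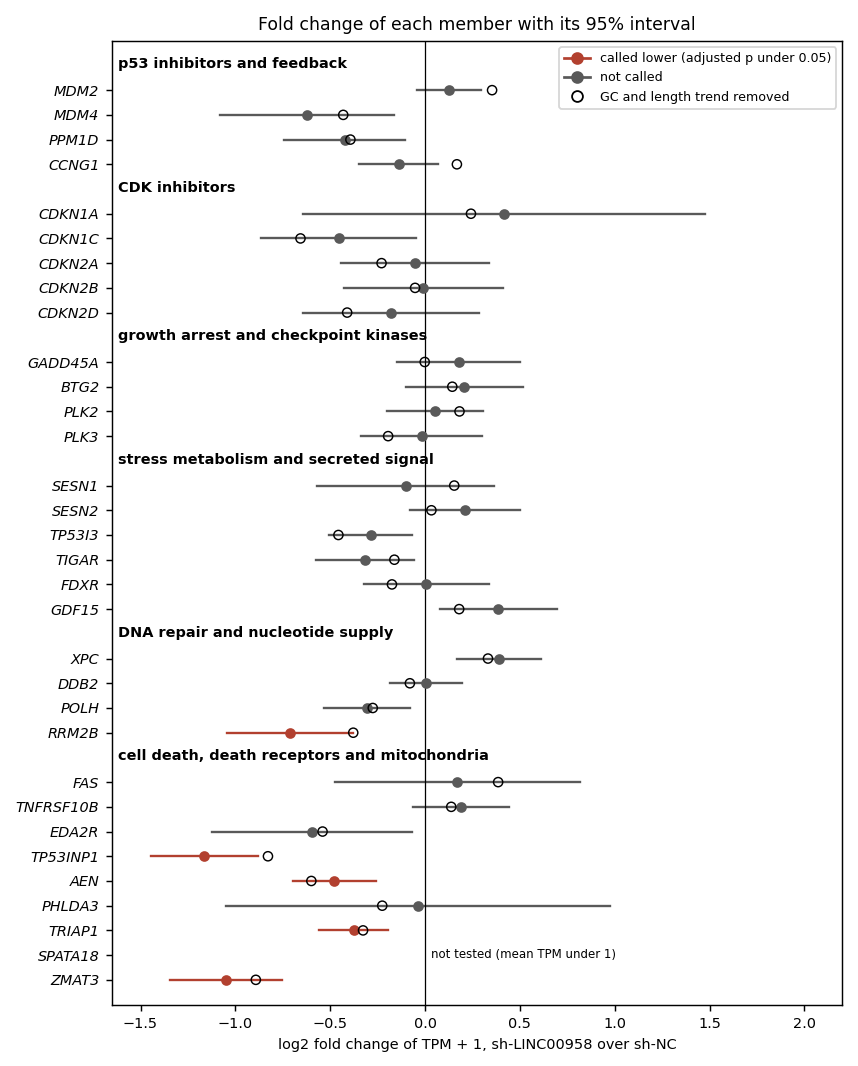
Log2 fold change of TPM + 1, sh-LINC00958 over sh-NC (horizontal axis), for the members in order of role; filled points are the limma estimates, lines their 95% intervals, and open circles the estimates after the trend with GC content and length was removed. The 5 genes in red passed with negative values, from -1.16 for TP53INP1 to -0.38 for TRIAP1; the longest intervals are those of CDKN1A and PHLDA3.

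None of the 4 inhibitors and feedback genes of p53 passed the test. MDM2, the ubiquitin ligase that degrades p53, measured 111.2, 113.3 and 108.8 TPM in sh-LINC00958 and 101.8 and 101.4 TPM in sh-NC. Every sh-LINC00958 library was slightly above both sh-NC libraries, and the log2 fold change was 0.13 (95% interval -0.04 to 0.30, limma adjusted p = 0.265). CCNG1, a cyclin that binds a phosphatase acting on MDM2, was the most abundant gene of the group, at 177.9, 160.02 and 177.3 TPM in sh-LINC00958 and 181.2 and 197.3 TPM in sh-NC. Its libraries did not overlap, by a margin smaller than the spread within either group (log2 fold change -0.14 with limma, adjusted p = 0.318, and a 95% interval from -0.35 to 0.07). MDM4, the partner of MDM2 that masks the activation domain of p53, measured 11.4, 15.0 and 11.7 TPM in sh-LINC00958 and 23.5 and 16.8 TPM in sh-NC. MDM4 was lower in all 3 libraries, with a limma adjusted p of 0.0894 and a log2 fold change of -0.62 (95% interval -1.08 to -0.16) that ran from -0.85 to -0.39 when 1 library at a time was left out. PPM1D, a phosphatase that turns off p53 and the damage kinases, measured 9.73, 10.9 and 8.86 TPM in sh-LINC00958 and 12.8 and 14.2 TPM in sh-NC, with a limma adjusted p of 0.0928.

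The 5 CDK inhibitors among the members gave no call in either direction. CDKN1A, the p21 gene, measured 50.5, 43.3 and 53.8 TPM in sh-LINC00958 and 63.7 and 20.7 TPM in sh-NC. The sh-NC libraries lay above and below all 3 sh-LINC00958 libraries. Their difference of 1.58 on the log2 scale was larger than that of 99.3% of tested genes, where the median was 0.139. The means of CDKN1A were 49.2 ± 5.38 TPM (SD, n = 3) in sh-LINC00958 and 42.2 ± 30.4 TPM (SD, n = 2) in sh-NC, and the fold change of 0.42 had an interval from -0.64 to 1.48 (limma adjusted p = 0.557). Without sh-NC replicate 1 the fold change was 1.21 and without sh-NC replicate 2 it was -0.37, so that 1 control library set its sign.

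CDKN2A, whose row sums the transcripts of p16 and of the MDM2 inhibitor ARF, was the most abundant of the inhibitors. It measured 105.6, 107.8 and 110.6 TPM in sh-LINC00958 and 135.5 and 92.6 TPM in sh-NC. As with CDKN1A, the sh-NC libraries lay on either side of the sh-LINC00958 libraries, replicate 1 above and replicate 2 below, and the log2 fold change was -0.05 (95% interval -0.44 to 0.34, limma adjusted p = 0.853). CDKN1C measured 6.49, 7.08 and 6.76 TPM in sh-LINC00958 and 8.09 and 11.5 TPM in sh-NC. It was the inhibitor whose groups did not overlap, with a limma adjusted p of 0.132. CDKN2D (p19) measured 14.2, 12.4 and 11.6 TPM in sh-LINC00958 and 11.8 and 17.8 TPM in sh-NC, and CDKN2B (p15) 3.48, 2.44 and 3.12 TPM in sh-LINC00958 and 2.88 and 3.17 TPM in sh-NC. Both overlapped between the groups.

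**Figure D3:**
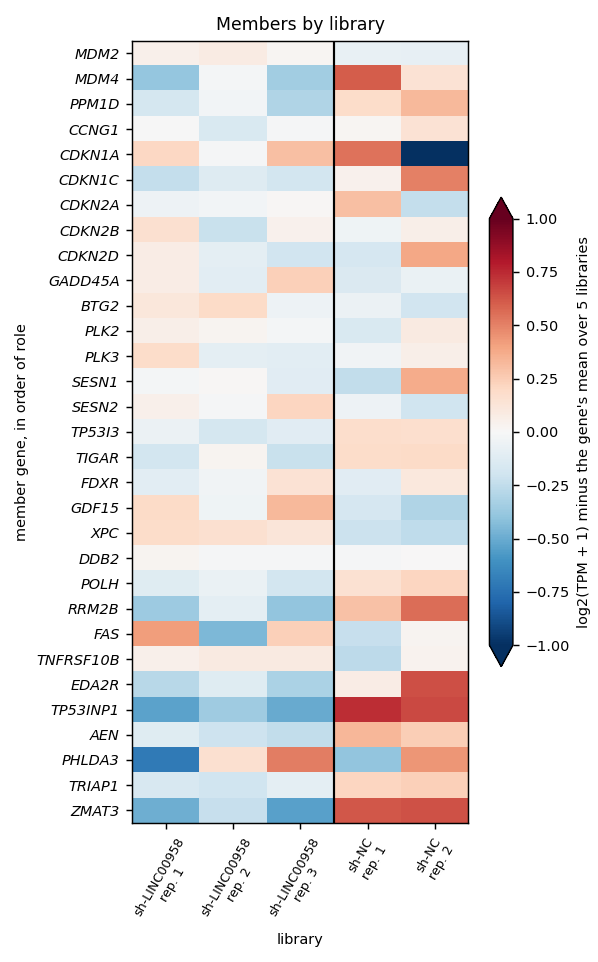
Log2(TPM + 1) of the 31 tested members in each library, given as the difference from the mean of the gene over 5 libraries (colour scale, red above and blue below the mean, ending at 1 in each direction); columns are sh-LINC00958 and then sh-NC libraries, rows are members in order of role. CDKN1A is the row in which the sh-NC libraries have the strongest opposite colours, and TP53INP1 and ZMAT3 are blue in all 3 sh-LINC00958 columns.

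The growth arrest genes were close to level. PLK2, a kinase of the stress response and the most abundant of this group, measured 41.8, 41.0 and 39.6 TPM in sh-LINC00958 and 36.1 and 42.9 TPM in sh-NC. GADD45A, a stress sensor that binds CDK1 and PCNA, measured 16.2, 14.2 and 18.3 TPM in sh-LINC00958 and 13.7 and 14.6 TPM in sh-NC. PLK2, GADD45A and PLK3 overlapped between the groups. PLK3, a stress-activated relative of PLK2, measured 17.1, 13.9 and 13.9 TPM in sh-LINC00958 and 14.6 and 15.7 TPM in sh-NC. BTG2, an antiproliferative factor that acts on messenger RNA decay, measured 11.8, 12.5 and 10.4 TPM in sh-LINC00958 and 10.4 and 9.41 TPM in sh-NC, with sh-LINC00958 replicate 3 just above sh-NC replicate 1. The log2 fold changes of the 4 genes lay between -0.02 for PLK3 and 0.21 for BTG2, and none passed the limma test (for PLK2 0.05, 95% interval -0.20 to 0.30, adjusted p = 0.764).

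The 6 genes of stress metabolism and secreted signals also gave no call. GDF15, a secreted growth factor of the stressed cell and the most abundant of the group, measured 86.4, 73.3 and 94.8 TPM in sh-LINC00958 and 67.4 and 61.3 TPM in sh-NC. All sh-LINC00958 libraries of GDF15 were above both sh-NC libraries, with a limma adjusted p of 0.105 and a log2 fold change of 0.39 (95% interval 0.08 to 0.70). Without sh-LINC00958 replicate 2, the lowest of its group, GDF15 passed with a limma adjusted p of 0.0390. TP53I3, a quinone oxidoreductase, measured 25.7, 23.5 and 24.7 TPM in sh-LINC00958 and 30.3 and 30.2 TPM in sh-NC, without overlap (limma adjusted p = 0.0968). TIGAR, a phosphatase that diverts glucose from glycolysis, measured 31.2, 36.1 and 30.2 TPM in sh-LINC00958 and 40.5 and 40.8 TPM in sh-NC, also without overlap (limma adjusted p = 0.111). TIGAR passed as lower without sh-LINC00958 replicate 2, with a limma adjusted p of 0.0444, and AC008012.1 on the same strand covers 42.6% of its exon bases. AC008012.1 has no values among the genes listed, and the TIGAR level is uncertain by an amount that was not tested. SESN2, a sestrin that restrains the growth kinase mTORC1, measured 17.2, 16.4 and 19.4 TPM in sh-LINC00958 and 15.9 and 14.3 TPM in sh-NC, and sh-LINC00958 was higher in every library. SESN1, its relative, measured 20.3, 20.8 and 18.9 TPM in sh-LINC00958 and 17.2 and 26.95 TPM in sh-NC, and FDXR, a mitochondrial reductase, 10.6, 11.2 and 12.8 TPM in sh-LINC00958 and 10.5 and 12.4 TPM in sh-NC. Both overlapped.

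The transcripts of the members differ in base composition, and over all tested genes the fold change moved with it. In 4 bins of about equal size, the genes with the lowest GC content, up to 43.0%, had a median log2 fold change of -0.29, with 670 lower and 43 higher, and those with the highest, from 56.4%, had a median of 0.18, with 31 lower and 361 higher. The 4 bins, from low to high GC, held 7, 7, 6 and 11 tested members, of which 2, 2, 1 and 0 were lower. Over all tested genes, 15.8%, 4.24%, 2.00% and 0.729% of these bins were lower in the same order. RRM2B and TP53INP1 each have 39.5% GC, ZMAT3 43.2%, TRIAP1 44.8% and AEN 55.5%. After a smooth trend with GC content and length was removed from every library, 413 genes (2.42%) were higher and 445 (2.61%) lower by limma. Among the members, 4 were then lower. TP53INP1 had -0.83 on the log2 scale (adjusted p = 0.0184), ZMAT3 -0.89 (adjusted p = 0.0114) and AEN -0.60 (adjusted p = 0.0244), and TP53I3 joined them at -0.46 (adjusted p = 0.0323). RRM2B, at -0.38 (adjusted p = 0.0760), and TRIAP1, at -0.33 (adjusted p = 0.0634), no longer passed. MDM2 became the 1 higher member, at 0.35 (adjusted p = 0.0446), and the fold change of CCNG1 turned to 0.17 against -0.14 before. GDF15 and SESN2, both in the highest GC bin, had 0.18 and 0.03 after the removal, against 0.39 and 0.21 before. Their limma adjusted p-values were then 0.354 and 0.880. Whether base composition shifted the measurement or the RNA itself was not tested.

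**Figure D4:**
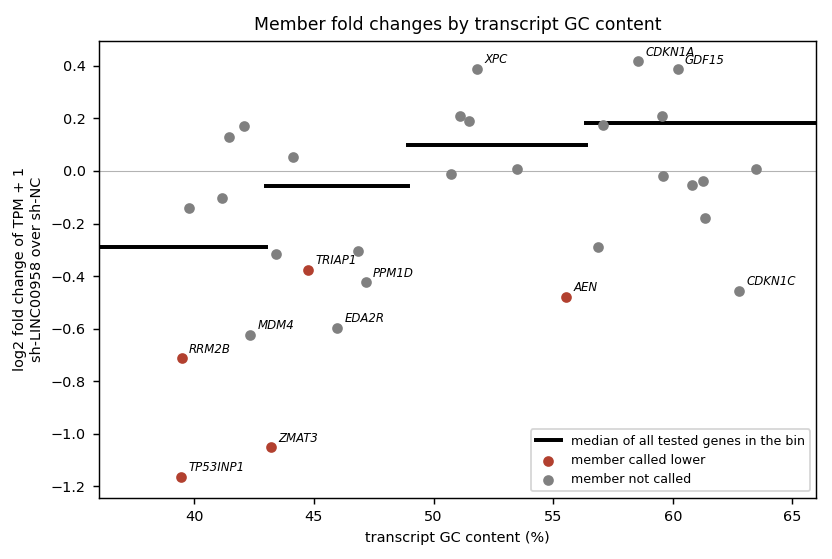
Log2 fold change of TPM + 1, sh-LINC00958 over sh-NC (vertical axis), of the 31 tested members against transcript GC content in percent (horizontal axis); red points passed as lower, and black lines are the medians of all tested genes in each of 4 GC bins. The medians run from -0.29 in the lowest bin to 0.18 in the highest; TP53INP1 and RRM2B lie at 39.5% GC and AEN at 55.5%.

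The calls, more than the fold changes, moved with single libraries. All 5 limma calls ended without sh-LINC00958 replicate 1 and without either sh-NC library. Without an sh-NC library that group has 1 sample, which is assumed to vary like sh-LINC00958, and few genes passed at all, 21 higher and 12 lower without replicate 1 and 10 higher and 6 lower without replicate 2. Leaving out sh-LINC00958 replicate 3 kept those of TP53INP1 and ZMAT3, and leaving out sh-LINC00958 replicate 2 kept all 5. The log2 fold change stayed between -1.22 and -1.12 for TP53INP1, -1.14 and -0.99 for ZMAT3, -0.85 and -0.58 for RRM2B, -0.52 and -0.43 for AEN, and -0.40 and -0.35 for TRIAP1, so the direction of none of the 5 turned. Over the refits with 1 library left out, the limma adjusted p ran from 0.0150 to 0.0887 for TP53INP1, from 0.0150 to 0.101 for ZMAT3, from 0.0252 to 0.168 for RRM2B, from 0.0428 to 0.163 for AEN and from 0.0407 to 0.177 for TRIAP1.

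Other genes of the pathway were read beside the members. Of 36 further p53 targets, 35 were tested, of which 2 were higher and 1 was lower, beside 4.12% higher and 5.68% lower over all tested genes. PERP, a desmosome-associated effector of p53-dependent death, measured 44.3, 52.8 and 44.7 TPM in sh-LINC00958 and 25.6 and 27.1 TPM in sh-NC, a log2 fold change of 0.82 (limma adjusted p = 0.0183). TNFRSF10D, a decoy receptor for TRAIL, measured 84.6, 83.8 and 84.7 TPM in sh-LINC00958 and 64.5 and 65.0 TPM in sh-NC, a log2 fold change of 0.38 (limma adjusted p = 0.0328). Both were above sh-NC in every library. E2F7, a repressor of cell cycle genes, measured 27.3, 20.9 and 23.0 TPM in sh-LINC00958 and 43.5 and 47.6 TPM in sh-NC, a log2 fold change of -0.92 (limma adjusted p = 0.0211). The median log2 fold change of these 35 genes was 0.08.

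In a list of 28 genes of p53 regulation, 27 were tested, of which 3 were higher and 1 was lower. The shares over all tested genes were 4.12% higher and 5.68% lower. PPP1R13L (iASPP), an inhibitor of p53, was higher at 15.6, 13.3 and 17.4 TPM in sh-LINC00958 and 8.64 and 8.30 TPM in sh-NC (log2 fold change 0.79, limma adjusted p = 0.0295). RPL11, a ribosomal protein that can bind MDM2, was higher by 0.40 on the log2 scale (limma adjusted p = 0.0347), and HDAC1, a histone deacetylase, by 0.32 (limma adjusted p = 0.0400). CHEK1, a kinase of the DNA damage checkpoint, was lower at 46.7, 52.0 and 46.1 TPM in sh-LINC00958 and 66.1 and 68.8 TPM in sh-NC (log2 fold change -0.48, limma adjusted p = 0.0336). PPP1R13L, RPL11, HDAC1 and CHEK1 no longer passed after the GC and length trend was removed.

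The kinases and cyclins that CDK inhibitors act on were listed with other inhibitors and the pocket proteins. Of 15 tested genes among 16 listed, 7 were lower and none higher, beside 5.68% lower and 4.12% higher over all tested genes. The lowest GC bin, where 15.8% of all tested genes were lower, holds 6 of the 15. Of the kinases, CDK1 alone passed. CDK4 was higher in every sh-LINC00958 library without passing (log2 fold change 0.27, limma adjusted p = 0.0884). CDK2 and CDK6 had log2 fold changes of -0.06 and 0.03. CDKN1B (p27), the close relative of CDKN1A, measured 56.2, 64.9 and 54.9 TPM in sh-LINC00958 and 92.1 and 95.3 TPM in sh-NC, a log2 fold change of -0.67 (limma adjusted p = 0.0217). RB1, the pocket protein that CDKs inactivate, measured 7.34, 7.61 and 5.63 TPM in sh-LINC00958 and 11.3 and 12.7 TPM in sh-NC, a log2 fold change of -0.74 (limma adjusted p = 0.0437). Groups were separate for both. The log2 fold changes of the kinase CDK1 and of the cyclins CCNE2, CCNA2, CCND1 and CCNE1 were -1.25, -0.9997, -0.84, -0.74 and -0.42 in that order, with limma adjusted p-values from 0.00890 to 0.0305. RB1 and CCNE2 no longer passed after the GC and length trend was removed.

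GDF15 and SESN2 also answer to ATF4, the transcription factor of the integrated stress response, so 8 genes of that arm were set beside them. PPP1R15A, which reverses the translational block, measured 30.7, 30.5 and 30.7 TPM in sh-LINC00958 and 19.2 and 18.8 TPM in sh-NC, a log2 fold change of 0.66 (limma adjusted p = 0.0173). TRIB3, a pseudokinase induced by ATF4, measured 35.6, 31.2 and 39.5 TPM in sh-LINC00958 and 20.5 and 19.5 TPM in sh-NC, a log2 fold change of 0.79 (limma adjusted p = 0.0235). Both were higher in every sh-LINC00958 library and the other 6 did not pass, beside 4.12% higher and 5.68% lower over all tested genes. In 6 of the 8, every sh-LINC00958 library was above both sh-NC libraries, against 24.4% of all tested genes. The median log2 fold change over the 8 was 0.48, with ASNS at 0.05 and CHAC1 at -0.32. Of the 8, 4 lie in the highest GC bin, where the median over all tested genes was 0.18. All 16 called genes of these 4 lists kept their direction in every refit, and none passed without sh-LINC00958 replicate 1 or without either sh-NC library. Without sh-LINC00958 replicate 3, CDK1, CCND1 and CCNA2 still passed.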

How the data were processed

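Gene levels were deposited by the authors as TPM, 1 table for the 5 libraries. Per the submitters' processing notes, HISAT2 2.0, StringTie 1.3.3b, Trimmomatic 0.36 and FastQC 0.11.2 were used with GRCh38; the annotation release is not given in the sources used here. Per the labels' protocols, 1 µg of DNase-treated total RNA entered each library. TPM keeps no depth, so no counting interval or floor could be given. The groups were compared with limma 3.58.1 (R 4.3.3; lmFit, eBayes with trend) on log2(TPM + 1), which understates changes of low genes, for 17049 genes with a mean of at least 1 TPM; p-values were two-sided and adjusted over all of them by Benjamini-Hochberg, and the fit was tested on simulated data. The GC and length alternative removed splines with 5 degrees of freedom, with values from GENCODE 29 (57836 of 58174 IDs found, 53551 with the same symbol). The members and the lists beside them were chosen with earlier results of these data known. Full values are given for members past the threshold and those with the highest mean of each role; genes of the other lists past the threshold are named, some by fold change and p alone. Others were singled out after their values were seen. Genes whose exons overlap are uncertain where named. The strand setting is not given, and for overlaps on the same strand it would not separate the genes. The values of 1 gene of the lists are not reported here.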

Additional observations from a re-analysis of the deposited data

How the results depend on the processing

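The comparison has 3 libraries against 2, an unknown depth, and p-values that move with single libraries. The 702 higher and 969 lower genes became 207 and 269 with no filter, 413 and 445 with the GC and length trend removed, 371 and 518 with eBayes without the trend, and 0 and 2 with the replicate block. They ran from 10 to 905 higher and from 6 to 1491 lower without each replicate in turn. Of the members, 2 were lower with no filter and 2 with eBayes without the trend (TP53INP1 and ZMAT3 in both), 0 with the replicate block, and from 0 to 6 without each replicate in turn. Under a pseudocount of 0.1, median-ratio scaling, quantile normalization and a filter at a mean TPM of 5, 1 member was higher (XPC), and 1 with the GC and length trend removed (MDM2); without each replicate in turn, the higher count was 0 to 1. Pseudocounts of 0.1 and 5, the filter at 5 TPM, the 2 scalings and rescaling without mitochondrial genes and the 10 most abundant genes kept the 5 lower members. Among uncalled members, the sign changed 10 times under processing settings and 17 times with a library left out. No called member reversed. Where no value above shows it, the cause of a change was not tested.

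The replicate numbers 1 and 2 occur in both groups, and nothing in the labels says that they mark a shared culture. Deviations of same-numbered libraries from their group means correlated at 0.00131 and 0.0497 over genes. Those of sh-LINC00958 replicate 3 and sh-NC replicate 1, which share no number, correlated at 0.0483. The deviations of the 2 sh-NC libraries are exact opposites, so these values cannot settle whether replicates pair. The replicate block leaves 1 residual degree of freedom, and under it the limma adjusted p was 0.104 for TP53INP1, ZMAT3 and RRM2B, 0.122 for AEN and 0.125 for TRIAP1, with log2 fold changes of -1.14, -0.99, -0.66, -0.45 and -0.40 in that order. For LINC00958 it was 0.104 with a log2 fold change of -0.92.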
